A study of Mus musculus with 12 samples.

Results

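The p53 pathway target genes are 31 mouse genes, chosen by symbol, that encode p53 itself, proteins that act on p53 or on Mdm2, and transcripts that p53 is known to raise. The list was chosen with earlier results of these data known. Shares of its genes called, set beside those of all genes, are therefore description only. Each gene was read by its brightest probe set, on average over the 12 arrays, among those paired with its symbol alone. This gave values for 29 of the 31 genes, out of 18193 genes measured in the series. Trp53, the gene of p53, and Fdxr, a mitochondrial reductase gene, have no values here because no probe set carried their symbol alone. The 29 genes were examined in 4 mouse acute myeloid leukaemia lines from BXH-2 mice, an inbred strain that develops retrovirus-induced myeloid leukaemia. B117H and B140H resist high doses of Ara-C (cytarabine, a cytidine analogue that stalls DNA synthesis), and each was derived from the Ara-C-sensitive parental line of the same number, B117P or B140P. The protocols recorded with all lines name exposure to rising Ara-C doses and passage without the drug, so no array is labelled as taken under treatment. Each lineage is 1 parental line with 1 resistant line, and each line had 3 arrays, lettered A, B and C. Whether these arrays are of separate cultures is not in the labels, and the p-values therefore reflect the spread among arrays, which may be technical.

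p53 is a transcription factor that is kept scarce by the ubiquitin ligase Mdm2 and accumulates when DNA is damaged or replication stalls. It then raises genes that arrest the cell cycle, such as Cdkn1a, genes that favour cell death, such as Fas and Apaf1, genes that feed back on p53, such as Mdm2 and Ppm1d, and genes of redox and nucleotide metabolism. In haematopoietic cells and myeloid leukaemia this pathway is one of the routes by which cytotoxic nucleoside analogues act on the cell.

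Values are intensity units on the linear scale of the deposited arrays, whose medians lay between 118 and 131. Correlations across probe sets were 0.988 to 0.997 within a line and at most 0.967 between lineages. The highest median, 131 intensity units, was that of B140H array B. Changes are differences of log2(intensity + 1), tested with limma, and a gene was called when its adjusted p, by the Benjamini-Hochberg method over all 45037 probe sets, was under 0.05. Dck, the kinase gene without which Ara-C stays inactive, had log2 changes of -7.96 in B117H and -3.04 in B140H, both called. Of 12 myeloid markers, 10 lay above the median probe set in B140P, 11 in B140H and 12 in each of B117P and B117H. Their summed intensity was 33172 to 35667 in B140P and 75494 to 89241 in B117P. The summed intensity of 5 B-cell markers was 2839 to 3530 in B140P and 461 to 528 in B117P, with Cd79b, Ebf1 and Cd79a higher in B140P and Pax5 and Ms4a1 not called. T-cell markers summed to 617 to 681 intensity units in B140P and 674 to 682 in B117P, and no T-cell, erythroid or stromal marker and 2 of 6 megakaryocyte markers, both higher in B140P, were called between the parental lines. In RNA of whole cultures, fewer cells of a type and less RNA per cell cannot be told apart.

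A well known p53 site of the mouse lies upstream of Cdkn1a, and this stretch is shown because Cdkn1a had the largest positive difference among the growth-arrest members between the parental lines. The core of a p53 site is a pair of 4-letter steps with 6 bases between them, each step reading CNNG with only A or T at the N positions. This set of steps is its own reverse complement, so one search reads both strands. Of the 31 genes, 27 had an upstream sequence in the RefSeq table of build GRCm38.p6, and Zmat3, Perp, Tnfrsf10b and Trp53inp1 had none. The 250 bases before the outer of 2 listed starts of Cdkn1a (chr17:29090729-29090978, plus strand) read as follows, with the pair of steps in capitals, beginning 48 bases before that start. The 250 bases before the other start (chr17:29093519-29093768) held no such pair.
Cdkn1a: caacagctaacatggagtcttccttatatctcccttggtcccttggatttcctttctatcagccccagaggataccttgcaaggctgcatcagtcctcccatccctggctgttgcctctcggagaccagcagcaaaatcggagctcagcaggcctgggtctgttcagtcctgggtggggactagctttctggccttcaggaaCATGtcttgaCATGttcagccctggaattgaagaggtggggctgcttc
The same pattern stood in the 250 bases before a start of 3 other genes of the list, shown as 20 bases around the match for comparison with Cdkn1a.
Aen: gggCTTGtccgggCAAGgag
Rps27l: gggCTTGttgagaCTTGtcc
Trp53: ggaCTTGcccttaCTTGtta
Thus 4 of the 37 listed starts of the 27 genes held the pattern, 1 in each of 4 genes, against 5.84% of the 32851 promoters of that length in the table. A match is a description of the letters only.

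Between each resistant line and its parent, the p53 targets did not move together. In B117H 20.7% of the measured members were called, where 9.41% of all genes were, and in B140H 0%, where 6.56% were. In B117H, Zmat3, Pmm1 and Ak1 rose while Gadd45b, Gadd45a and Ei24 fell, and the genes that feed back on p53, Mdm2 and Ppm1d, passed no test. In B140H no member was called in the main fit, while Ei24 fell in 9 of 25 alternative fits and Plk2 rose in 2. Cdkn1a, which encodes the cyclin-dependent kinase inhibitor p21, passed no test in either resistant line. Between the parental lines 41.4% of the members were called, where 23.8% of all genes were. Zmat3, Cdkn1a, Ccng1, Mdm2, Ei24, Pmm1, Ppm1d and Rps27l were higher in B140P than in B117P, and Gadd45a, Gadd45b, Ak1 and Cdkn2a were lower.

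In B117H against B117P, 3 of the 29 measured members rose and 3 fell, or 20.7%, where 9.41% of all genes were called (4.73% rose and 4.68% fell). Without B117P array B the count of called members was 3. The median change of the members was -0.02, against -0.01 over all genes. In B140H against B140P, limma called 0 of 29 members where 6.56% of all genes were called (2.81% rose and 3.75% fell). An unadjusted p under 0.05 was found for 8 of the 29 members and for 3383 of all 18193 genes. With the array letter as a block, which pairs the B140H and B140P arrays, Plk2 (0.41, adjusted p = 0.019) and Ei24 (-0.35, adjusted p = 0.0365) were called there. The average of both changes called 3 members, Ak1 (0.38, adjusted p = 0.00494), Ei24 (-0.36, adjusted p = 0.00542) and Gadd45b (-0.45, adjusted p = 0.00218), where 7.86% of all genes were called (3.69% rose and 4.17% fell). The block raised this count to 7, adding Rps27l, Zmat3, Pmm1 and Gadd45a. The average includes the B117H and B117P arrays, which the letters did not pair, so these added calls rest partly on unpaired arrays. All shares of all genes in this paragraph are from the fit without the block, so they are no background for the counts with it. Between B140P and B117P, 8 members were higher and 4 lower, or 41.4%, where 23.8% of all genes were called (12% higher and 11.8% lower). Their median change was 0.25, against 0.00 over all genes. The B117H and the parental comparison share the B117P arrays, and the B140H and the parental comparison share the B140P arrays.

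**Figure D1:**
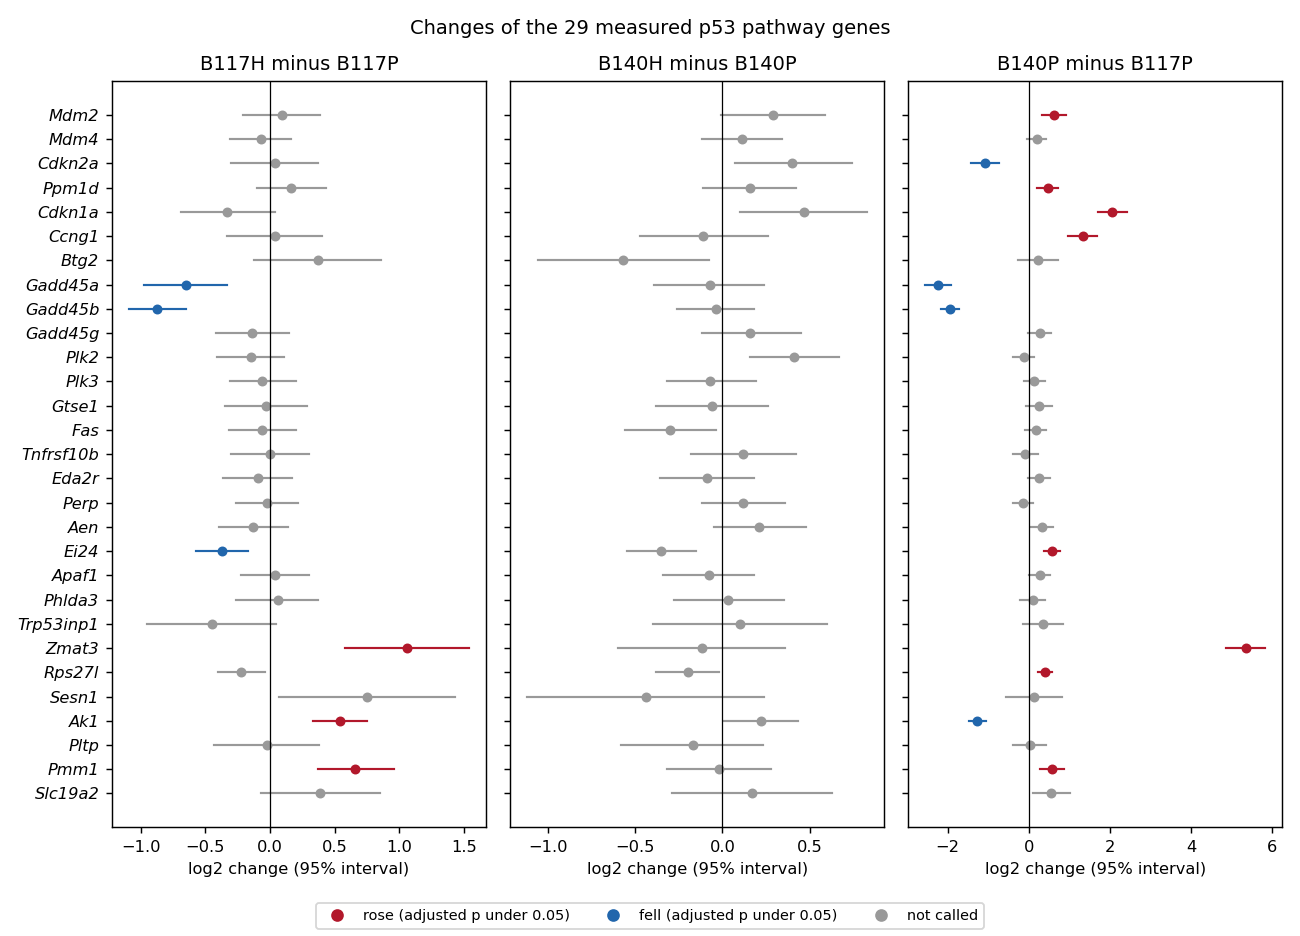
Log2 change (x axis, with 95% interval from limma) of the 29 measured p53 pathway genes, ordered by role, in B117H minus B117P, B140H minus B140P and B140P minus B117P. Red marks genes called higher, blue genes called lower and grey genes not called. The scale of the third panel is wider, since Zmat3 lay at 5.35 there.

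Whether the change differed between lineages was tested as the change in B117H minus the change in B140H. Of the 29 members, 2 were called, 1 in each direction, where 10.4% of all genes were (5.51% upward and 4.91% downward). Zmat3 changed by 1.06 in B117H and -0.12 in B140H, a difference of 1.18 (adjusted p = 0.0368). Gadd45b changed by -0.87 in B117H and -0.04 in B140H, a difference of -0.83 (adjusted p = 0.00311). The block raised the count to 8, adding Cdkn1a, Btg2, Gadd45a, Plk2, Sesn1 and Pmm1, with Cdkn1a at a difference of -0.79 (adjusted p = 0.0487). This fit also blocked the B117H and B117P arrays, which the letters did not pair. The 10.4% of all genes is from the fit without the block, so it is no background for the count of 8. The Zmat3 call ended under 13 of 25 alternatives, whose adjusted p ran from 0.0107 to 0.396. Leaving out B117P array A or B, B117H array A or B, B140P array B or C, or B140H array A or B each ended it. For Gadd45b, 1 of 25 alternatives, the fit with no C array, removed the call (adjusted p = 0.0856, range 0.00139 to 0.0856).

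Among the regulators of p53, none of the 4 measured genes was called in a resistant line, and 3 differed between the parental lines. These 3 were 75% of the group, where 23.8% of all genes were called between the parental lines. Mdm2, the ligase that marks p53 for degradation and is itself a p53 target, had 2110, 2824 and 2098 intensity units on arrays A, B and C of B140P. In B117P it had 1496, 1575 and 1443. The groups did not overlap, and Mdm2 was 1.54-fold higher in B140P (log2 0.63, SE 0.14, adjusted p = 0.00555). In the resistant lines it had 2591, 3418 and 2578 intensity units in B140H and 1505, 1553 and 1752 in B117H, changes of 0.29 (adjusted p = 0.368) and 0.09 (adjusted p = 0.926).

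Ppm1d, whose phosphatase Wip1 removes activating phosphates from p53 and its kinases, had 797, 1025 and 875 intensity units in B140P and 591, 761 and 595 in B117P. All B140P arrays lay above all B117P arrays, with a log2 difference of 0.47 (adjusted p = 0.0147). This call ended without B117P array A (adjusted p = 0.06), B117P array C (0.0689) or B140P array B (0.081), in a range of 0.00127 to 0.207 over 25 alternatives. Mdm4, the Mdm2 relative that binds and blocks p53, differed by 0.20 between B140P and B117P (adjusted p = 0.302).

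Cdkn2a encodes, in different reading frames, the Mdm2 inhibitor Arf and the kinase inhibitor p16, which its probe set was not used to separate here. It had 1989, 1749 and 2212 intensity units in B140P, against 3659, 3941 and 5026 in B117P, and was 2.11-fold lower in B140P (log2 -1.08, adjusted p = 0.000197). In B140H it had 3162, 2443 and 2305 intensity units, all above B140P, yet the change of 0.40 did not pass the test (adjusted p = 0.214). In B117H it had 3794, 4792 and 4288 intensity units, which overlapped B117P.

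Of the 9 growth-arrest genes, 2 fell in B117H and none rose, while between the parental lines 2 were higher in B140P and 2 lower. The calls were 22.2% of these genes in B117H and 44.4% between the parental lines, where 9.41% and 23.8% of all genes were called. Cdkn1a had 5286, 5805 and 6082 intensity units in B140P, against 1319, 1656 and 1182 in B117P. It was 4.16-fold higher in B140P (log2 2.06, 95% interval 1.70 to 2.42, adjusted p = 1.17e-06), and its next brightest probe set gave 2.16 (adjusted p = 9.75e-08). In B140H it had 7975, 7745 and 7960 intensity units, every array above those of B140P. The change of 0.47 in B140H did not pass the test (adjusted p = 0.178), nor did that of the next brightest probe set, 0.43 (adjusted p = 0.112). In B117H it had 1155, 825 and 1376 intensity units, overlapping B117P, for a change of -0.33 (adjusted p = 0.4).

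Ccng1, the gene of cyclin G1 and a target that feeds back on Mdm2, had 2419, 3360 and 3199 intensity units in B140P and 969, 1390 and 1218 in B117P. The lines did not overlap, and the 2.51-fold difference (log2 1.33, adjusted p = 6.79e-05) was shared by its other probe sets, at 1.24 and 0.79 (adjusted p = 0.000195 and 0.00561). Each resistant line overlapped its parent for Ccng1, with 2271, 2758 and 3317 intensity units in B140H and 1146, 1211 and 1279 in B117H.

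The Gadd45 genes encode small stress proteins that bind cell-cycle and DNA repair factors, and 2 of the 3 were lower in B140P. Gadd45a had 64.2, 74.2 and 77.9 intensity units in B140P and 313, 382 and 334 in B117P, and was 4.70-fold lower in B140P (log2 -2.23, adjusted p = 1.53e-07). In B117H it had 201, 217 and 234 intensity units, below every B117P array, a change of -0.65 (adjusted p = 0.0154). That call ended without B117P array B (adjusted p = 0.0726), B117H array A (0.0659) or B117H array B (0.0535), in a range of 0.00251 to 0.224 over 25 alternatives. In B140H Gadd45a had 58.8, 61.5 and 88.0 intensity units, overlapping B140P. Its single probe set had log2 means of 6.19 in B140P and 6.11 in B140H, below the median probe set (6.95). The size of the fold between the parental lines is therefore not exact.

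Gadd45b had 406, 397 and 407 intensity units in B117H, against 693, 751 and 771 in B117P. It was 1.83-fold lower in B117H (log2 -0.87, SE 0.10, adjusted p = 0.000155), and this call held under all 25 alternatives run, with adjusted p from 8.01e-05 to 0.0231. B140H, with 215, 165 and 182 intensity units, overlapped B140P, with 185, 187 and 201. B140P lay 3.85-fold below B117P (log2 -1.94, adjusted p = 1.62e-08). The next brightest Gadd45b probe set was called the same way in B117H (-0.89, adjusted p = 0.00693) and in B140P against B117P (-2.13), while the third was not (-0.21 and -0.46). Gadd45g, the third member of the family, was below the median probe set in every line and was not called in any comparison (0.27 in B140P against B117P, adjusted p = 0.235).

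Among the other growth-arrest genes, Btg2, an antiproliferative gene, had 317, 250 and 230 intensity units in B140H and 577, 302 and 344 in B140P, a change of -0.57 (adjusted p = 0.237). Only array A of B140P stood high, and array A of B140H fell within the other B140P values. Plk2, a Polo-like kinase gene, had 93.8, 124 and 98.1 intensity units in B140H and 75.2, 78.5 and 81.2 in B140P, without overlap, for a change of 0.41 (adjusted p = 0.0763, or 0.019 with the array letter as a block). Plk3, a related kinase gene, and Gtse1, whose product restrains p53 in G2 phase, changed by no more than 0.07 in size in the resistant lines and were not called in any comparison.

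**Figure D2:**
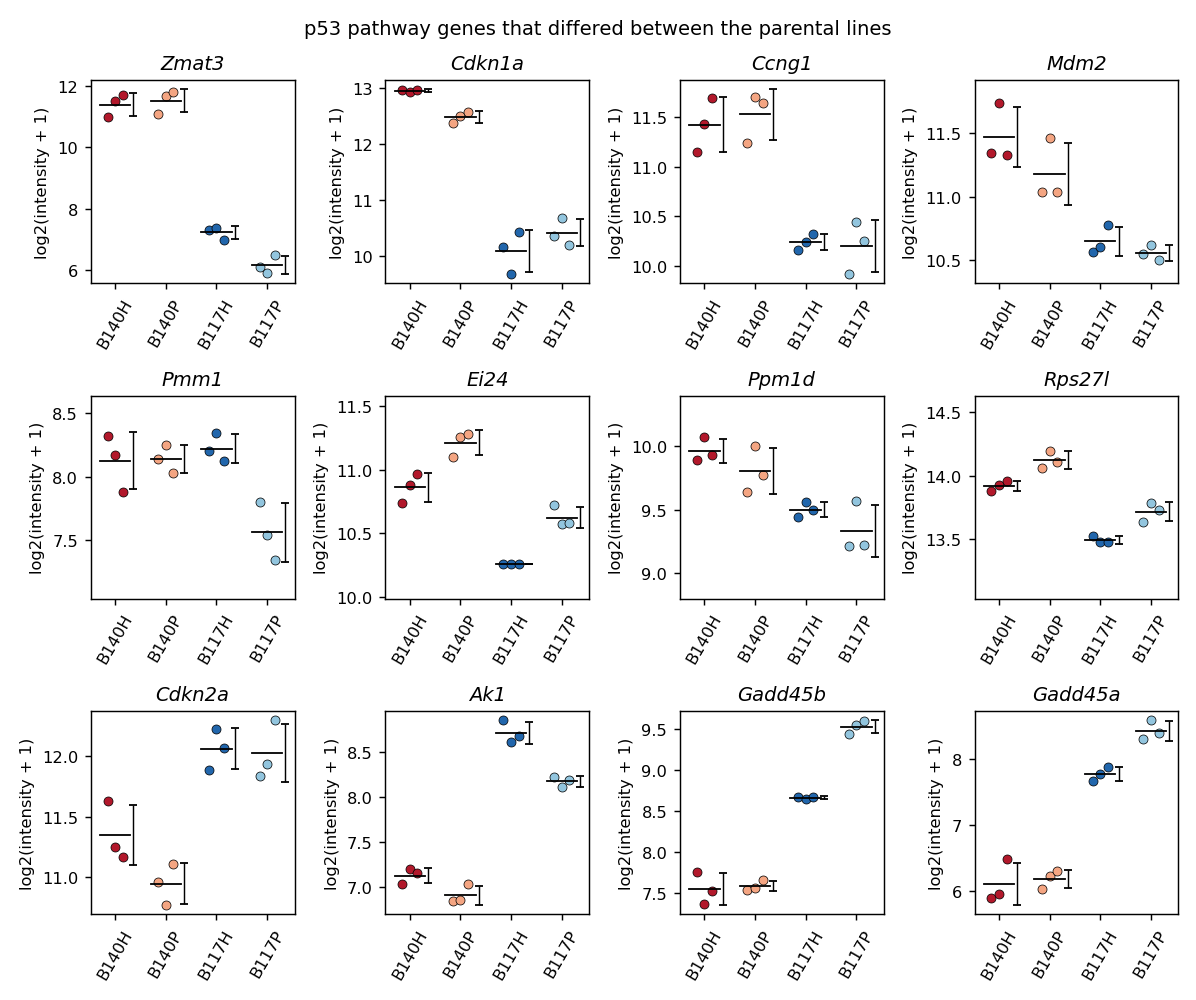
Levels, as log2(intensity + 1), of the 12 members called between B140P and B117P, in B140H, B140P, B117H and B117P. Points are the 3 arrays of a line in the order A, B, C, the bar is their mean and the whisker 1 SD on either side. Zmat3 spans over 5 log2 units, and Gadd45a, Gadd45b, Ak1 and Cdkn2a are lower in B140P.

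Of the 11 genes placed with cell death, Zmat3 rose and Ei24 fell in B117H, and Zmat3, Ei24 and Rps27l were higher in B140P. These were 18.2% of the group in B117H and 27.3% between the parental lines, where 9.41% and 23.8% of all genes were called. Zmat3 encodes a zinc-finger protein that binds RNA and is a direct p53 target. It had 2174, 3259 and 3574 intensity units in B140P and 67.5, 59.7 and 88.7 in B117P. This 40.8-fold difference (log2 5.35, 95% interval 4.87 to 5.83, adjusted p = 1.65e-09) was the largest among the members in any comparison. B140H, with 2014, 2920 and 3344 intensity units, overlapped B140P. In B117H the values were 157, 166 and 126, above every B117P array, so Zmat3 rose 2.09-fold (log2 1.06, SE 0.22, adjusted p = 0.00984). That call ended without B117P array B (adjusted p = 0.0513) and without all B arrays (0.24), the highest of a range that began at 0.00254. B117H remained far below both B140 lines. Zmat3 was read by a single probe set, whose B117P mean of 6.17 on the log2 scale lay below the median probe set (6.95). No detection calls came with these values, so the size of the fold against B117P is not exact.

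Ei24 encodes an endoplasmic reticulum protein that p53 induces. It had 1222, 1223 and 1229 intensity units in B117H, against 1691, 1522 and 1532 in B117P, a change of -0.37 (adjusted p = 0.0295). Leaving out any of these 6 arrays ended the call, with adjusted p between 0.0563 and 0.104, and the range over 25 alternatives was 0.0111 to 0.25. In B140H it had 1704, 1882 and 2000 intensity units and in B140P 2189, 2444 and 2478, a change of -0.35 (adjusted p = 0.0522, or 0.0365 with the array letter as a block). Both resistant lines lay below their parents without overlap, and the difference between the changes was -0.02 (95% interval -0.30 to 0.27). B140P lay above B117P (log2 0.58, adjusted p = 0.000489).

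Ei24 and Rps27l lie on chromosome 9, where 134 of 1006 genes (13.3%) fell and 9 rose in B140H, against 3.75% of all genes that fell. On the same chromosome 25.3% of genes were higher in B140P than in B117P, against 12% of all genes. In B117H 2.49% of chromosome 9 genes fell. Among other members called between the parental lines, Cdkn2a lies on chromosome 4, where 25.8% of genes were lower in B140P, against 11.8% of all genes, and Zmat3 on chromosome 3, where 18.3% were higher. The part of these shares in the genes' values was not tested.

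Rps27l encodes a ribosomal protein variant that p53 induces, and it closely resembles Rps27, so its probe sets may also read that gene. It had 17133, 18797 and 17671 intensity units in B140P and 12774, 14157 and 13581 in B117P, a log2 difference of 0.40 (adjusted p = 0.00312). Leaving out every C array ended the call (adjusted p = 0.0741, range 0.000206 to 0.0741). In the resistant lines it lay below its parent on every array, with changes of -0.20 in B140H (adjusted p = 0.262) and -0.22 in B117H (adjusted p = 0.164). Neither was called in the main fit, but an intensity trend with robust prior called the B117H change (adjusted p = 0.0409). The average of both changes (-0.21, adjusted p = 0.0553) was called in 7 of 25 alternatives.

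The death receptor genes Fas, Tnfrsf10b and Eda2r and the membrane protein gene Perp lay below the median probe set in all 4 lines and were not called in any comparison. Fas had 30.1, 33.6 and 28.6 intensity units in B140H and 35.0, 35.7 and 44.0 in B140P, a change of -0.30 (adjusted p = 0.24). Whether such dim probe sets were detected is not given with the values. Aen, a nuclease gene with a matched stretch among those printed for comparison with Cdkn1a, had 1235, 1489 and 1272 intensity units in B140P and 1130, 963 and 1092 in B117P, without overlap, for a difference of 0.33 that was not called (adjusted p = 0.0962). Another of its 4 probe sets was called higher in B140P (0.73, adjusted p = 0.00151). The dimmest lay the other way and was not called (-0.22, adjusted p = 0.198). Apaf1, the apoptosome scaffold gene, Phlda3, whose product inhibits Akt, and Trp53inp1, whose product assists p53, were not called in any comparison. Trp53inp1 had the widest interval among the 3, -0.95 to 0.05 around -0.45 in B117H.

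**Figure D3:**
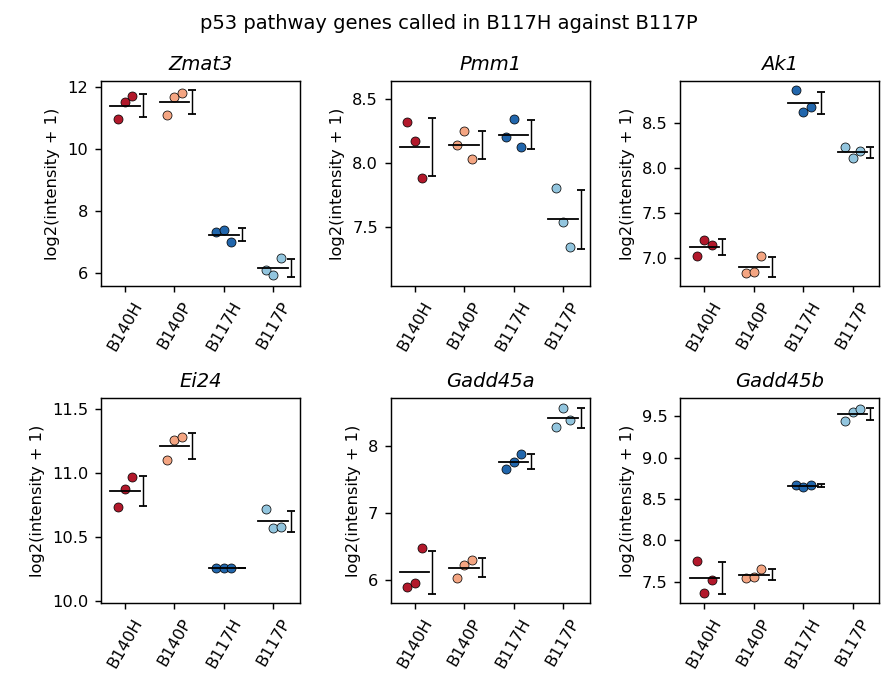
Levels, as log2(intensity + 1), of the 6 members called between B117H and B117P, in B140H, B140P, B117H and B117P. Points are the 3 arrays of a line in the order A, B, C, the bar is their mean and the whisker 1 SD on either side. Zmat3, Pmm1 and Ak1 are higher and Ei24, Gadd45a and Gadd45b lower in B117H than in B117P.

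Of the 5 measured genes of metabolism and transport, Pmm1 and Ak1 rose in B117H and none fell. That was 40% of the group, where 9.41% of all genes were called in B117H. Pmm1, which encodes a phosphomannomutase, had 294, 324 and 277 intensity units in B117H and 222, 185 and 161 in B117P. It rose 1.58-fold (log2 0.66, adjusted p = 0.00928), and its other probe set gave 0.63 (adjusted p = 0.00891). The call ended without B117P array C (adjusted p = 0.0508), in a range of 0.000866 to 0.19. B140P, with 282, 303 and 261 intensity units, was higher than B117P by 0.58 (adjusted p = 0.00845, ending without all B arrays at 0.149), and B140H, with 318, 287 and 234, overlapped B140P.

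Ak1, which encodes an adenylate kinase, had 462, 393 and 408 intensity units in B117H and 299, 276 and 290 in B117P, a rise of 0.54 (adjusted p = 0.00356). In B140H it had 130, 146 and 141 intensity units and in B140P 114, 114 and 130, a change of 0.22 (adjusted p = 0.318). The B140P level was 2.41-fold below that of B117P (log2 -1.27, adjusted p = 6.63e-07). The second, dim probe set of Ak1 was called in none of these comparisons, and averaging both probe sets ended the B117H call (adjusted p = 0.0917, range 0.00188 to 0.0917), as did leaving out all B or all C arrays.

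Sesn1 encodes a sestrin that restrains mTORC1 signalling. Its brightest probe set had 2939, 3073 and 4069 intensity units in B117H and 1194, 2719 and 2389 in B117P, above every parental array but with a change of 0.75 that was not called (adjusted p = 0.248). The next 2 probe sets by brightness were called higher in B117H, by 0.51 (adjusted p = 0.0433) and 0.71 (adjusted p = 0.0372). Slc19a2, a thiamine transporter gene, had 635, 1146 and 724 intensity units in B140P and 526, 580 and 539 in B117P, a difference of 0.56 (adjusted p = 0.0995). With the array letter as a block it was called (adjusted p = 0.0118), the only member this block added between the parental lines. Pltp, a phospholipid transfer protein gene, was not called in any comparison.

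The 29 members had 58 probe sets, and 18 members had more than 1. Of the 12 members called between the parental lines, 8 had further probe sets, 12 in all. Of these, 9 gave the same call, 3 were not called and 0 gave the opposite call. The 3 were the dimmest probe sets of Mdm2 (-0.30), Gadd45b (-0.46) and Ak1 (0.07).

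**Figure D4:**
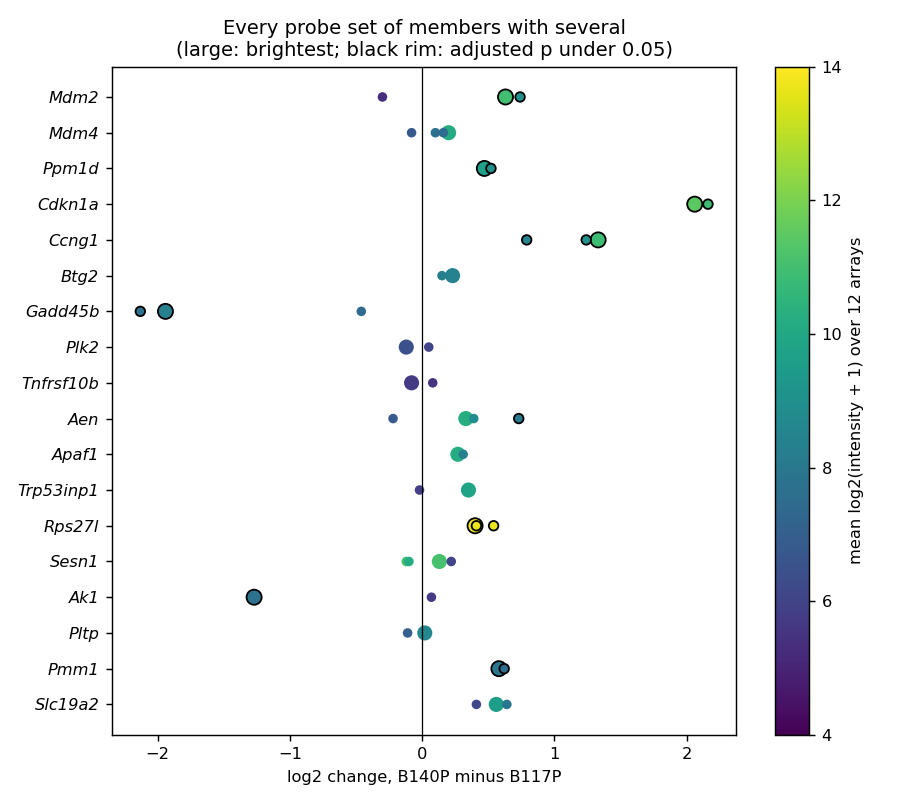
Log2 difference of B140P minus B117P (x axis) for every probe set of the 18 members with several. Large points are the brightest probe set of a gene, black rims mark an adjusted p under 0.05 and the colour gives the mean log2(intensity + 1) over 12 arrays. The Cdkn1a, Ccng1, Ppm1d, Rps27l and Pmm1 probe sets were all called higher in B140P.

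The difference between lineages showed in the arrays themselves. In 9 members all 6 B140 arrays lay above all 6 B117 arrays, and in 4 below, together 44.8% of the 29, where 18.2% of all genes were separated in this way (8.91% above and 9.31% below). Mdm2, Mdm4, Ppm1d, Cdkn1a, Ccng1, Aen, Ei24, Zmat3 and Rps27l were the 9, and Cdkn2a, Gadd45a, Gadd45b and Ak1 the 4. Pmm1, called between the parental lines, was not among them, because B117H had the level of the B140 lines. In B117H against B117P, 5 members lay above and 4 below without overlap, or 31%, where 26.2% of all genes did (13.7% above and 12.5% below). In B140H against B140P 4 lay above and 3 below, or 24.1%, near the 23.7% of all genes (13.7% above and 10% below). Between the parental lines 12 lay above and 4 below, or 55.2%, where 38.6% of all genes did (19.9% above and 18.7% below). Myeloid and B-cell marker levels differed between the lineages too, with 9 of 12 myeloid markers lower and 3 of 5 B-cell markers higher in B140P. The other way, 1 myeloid marker, Cd33, was higher in B140P (log2 2.80, adjusted p = 1.22e-06). Of myeloid markers 5 also fell in B117H and 2 in B140H. Of the other markers, the B-cell gene Cd79b (-0.75, adjusted p = 0.0385) and the megakaryocyte gene Vwf (-0.55, adjusted p = 0.0314) fell and the stromal gene Pdgfrb rose (1.07, adjusted p = 0.00374) in B117H, and Vwf fell in B140H (-0.55, adjusted p = 0.0444). Their part in the p53 targets' values was not tested.

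Other genes of the pathway were read from 3 lists, of further p53 targets, of upstream kinases and modifiers, and of mitotic genes that p53 and p21 are known to lower. Among 29 further targets, 4 rose and 2 fell in B117H, 1 rose in B140H, and 9 were higher and 5 lower in B140P than in B117P. These were 20.7%, 3.45% and 48.3% of the list, where 9.41%, 6.56% and 23.8% of all genes were called. Thbs1, the gene of the antiangiogenic protein thrombospondin, averaged 218 ± 36.1 intensity units in B117H and 92.6 ± 13.2 in B117P (SD, n = 3 each), a rise of 1.22 (adjusted p = 0.000625). Tap1, which encodes a peptide transporter of antigen presentation, rose by 0.60 in B117H (adjusted p = 0.0126), and Ercc5, a nucleotide excision repair gene, by 0.59 (adjusted p = 0.011). Trp53i11 fell by 0.67 in B117H (adjusted p = 0.00635).

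Dram1, a target that acts in autophagy, averaged 114 ± 10.9 intensity units in B140H and 81.6 ± 11 in B140P, a rise of 0.48 (adjusted p = 0.0357). Between the parental lines it was the further target with the largest difference, at 81.6 ± 11 intensity units in B140P and 1224 ± 138 in B117P (log2 -3.89, adjusted p = 9.97e-11). Ddit4, a stress-induced inhibitor of mTORC1, was higher in B140P by 2.63 (adjusted p = 0.000283) and Psrc1, a spindle gene, by 2.01 (adjusted p = 4.53e-05), while Abhd4 was lower (-1.96, adjusted p = 1.02e-07). So the further targets, like the members, differed in both directions between the parental lines.

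Of 26 upstream genes, 1 rose and 3 fell in B117H, 4 fell in B140H, and 6 were higher and 6 lower in B140P than in B117P. These were 15.4%, 15.4% and 46.2% of the list, against the same shares of all genes. Hipk2, a kinase gene whose product phosphorylates p53, fell in both resistant lines, by 0.53 in B140H (adjusted p = 0.00421) and by 0.47 in B117H (adjusted p = 0.00593). It averaged 902 ± 24.8 intensity units in B140H and 1306 ± 116 in B140P, and 815 ± 17.7 in B117H and 1135 ± 78.3 in B117P. Atm and Atr, the kinases that sense DNA breaks and stalled forks, and Chek1, the kinase below Atr, fell in B140H by 0.47, 0.54 and 0.46 (adjusted p = 0.0061, 0.00818 and 0.0195). All 3 lie on chromosome 9, whose genes fell in B140H in the share given above, and that share's part in their values was not tested.

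In B117H Ppp1r13b, which encodes a cofactor that directs p53 to death genes, rose by 1.02 (adjusted p = 7.3e-05). Usp7, the deubiquitinase gene for p53 and Mdm2, fell by 0.55 (adjusted p = 0.00325) and the ubiquitin ligase gene Rchy1 fell by 0.48 (adjusted p = 0.00848). Ppp1r13b lies on chromosome 12, where 22.9% of 624 genes rose in B117H, and Usp7 on chromosome 16, where 20.9% of 598 genes fell, against 4.73% and 4.68% of all genes. The part of these shares in the 2 values was not tested. Of 21 mitotic genes, 1 rose in B117H (Bub1, 0.63, adjusted p = 0.0246) and 1 fell in B140H (Ttk, -0.39, adjusted p = 0.0137). Between the parental lines 4 were higher and 3 lower in B140P, with Ccnb2 at 1.17 (adjusted p = 1.53e-05). The mitotic genes called were 4.76% of their list in each resistant line, below the 9.41% and 6.56% of all genes, and 33.3% between the parental lines.

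**Figure D5:**
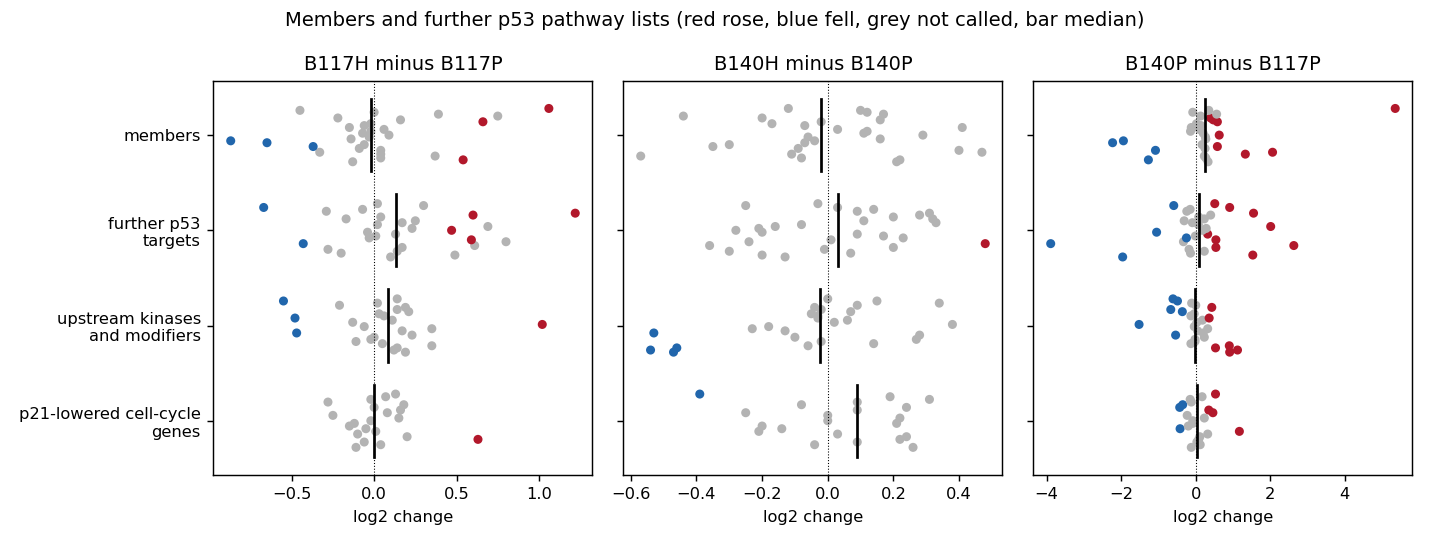
Log2 change (x axis) of each measured gene of the member list and of the 3 further lists, in B117H minus B117P, B140H minus B140P and B140P minus B117P. Red and blue points are genes called higher and lower, grey points were not called, and the black bar is the median of the list. The medians lie between -0.03 and 0.25, and called genes lie on both sides of 0 in all 3 panels.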

How the data were processed

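The authors deposited 1 table of linear probe-set intensity values for 12 arrays, summarised with RMA per the submitters' processing notes. The sources used here give no RMA version or settings and no genome build. Of 45101 probe sets, 64 controls were removed. Symbols came from the platform annotation, and 34945 probe sets carried 1 symbol. Values were taken as log2(intensity + 1) and fitted with limma 3.58.1 in R 4.3.3 (lmFit, contrasts.fit, eBayes, 1 coefficient per line, two-sided), with 8 residual and 4.65 prior degrees of freedom. P-values were adjusted by the Benjamini-Hochberg method over 45037 probe sets. The number of arrays limits precision, with 95% intervals reaching a factor of 1.20 around the fold change of a median gene. The fit was tested on simulated data.

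The members and lists were chosen with earlier results of these data known. Every member may be named, and from each further list the 4 called genes with the largest change per comparison. The array letters were checked by correlating deviations from line means. For A, B and C these were 0.587, 0.36 and 0.56 between B140H and B140P, 0.499, 0.131 and 0.414 between B140P and B117P, and 0.555, 0.0278 and 0.392 between B117H and B117P. So the letters pair the arrays in the first 2 comparisons only. Chromosomes came from a RefSeq gene table.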

Additional observations from a re-analysis of the deposited data

Results flagged for a closer look

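The change in B117H differed from the change in B140H, by limma's test of the difference itself, for 2 members and for 11 genes of the further lists, 10 of which are within the naming rule. The members are 6.9% of those measured, below the 10.4% of all genes called in this comparison. Zmat3 (difference 1.18, adjusted p = 0.0368) changed by 1.06 in B117H and -0.12 in B140H, a call that ended under 13 of 25 alternatives, and Gadd45b (-0.83, adjusted p = 0.00311) by -0.87 and -0.04. Among further targets, Dram1 (-0.92, adjusted p = 0.00444) changed by -0.43 in B117H and 0.48 in B140H, opposite directions that each passed the test. Thbs1 (0.91, adjusted p = 0.0391), Pml (0.75, adjusted p = 0.0137) and Trp53i11 (-0.70, adjusted p = 0.0354) also differed. Among upstream genes these were Usp7 (-0.71, adjusted p = 0.00652), Atm (0.66, adjusted p = 0.00444), Atr (0.66, adjusted p = 0.0143), Ppp1r13b (0.64, adjusted p = 0.0224) and Chek1 (0.60, adjusted p = 0.0202), and among mitotic genes Ttk (0.53, adjusted p = 0.0128). Atm, Atr, Chek1 and Ttk all lie on chromosome 9.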

How the results depend on the processing

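Over 25 alternatives, 0 of 575 recomputed member calls changed direction and 55 lost significance, and 92 of 125 counts of called members stayed within 1.5 times. The parental count of 12 always did. With the array letter as a replicate block, B140H had 2 calls, the average of both changes 7 and the difference between changes 8. The shares of all genes given above are from the fit without this block, so they are no background for these counts. B140H had 1 call with a pseudocount of 16, quantile normalization applied again, arrays centred on their medians, brighter probe sets only or an intensity trend with robust prior, in each case Ei24, and 2 when the probe sets of each gene were averaged. The average had 5 with a pseudocount of 16 or brighter probe sets. The difference had 4 with brighter probe sets, 5 with averaged probe sets and 1 at an adjusted p under 0.01. Without all A, all B or all C arrays the average had 1, 0 and 0 calls and the difference 1, 1 and 0, while B117H had 1 without all B and 3 without all C. These fits rest on fewer arrays. Leaving out 1 array gave 3 to 6 calls in B117H (3 without B117P array B), 0 to 1 in B140H (1 without B117P array A or B140H array C), 3 to 5 for the average (5 without either of those), 1 to 3 for the difference and 11 to 13 between the parental lines. The cause of these moves was not tested. No detection calls limit the dim members, of which 6 lay below the median probe set in every line.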
